A study of Homo sapiens with 12 samples.

Results

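The 9 genes described here encode the core of the transforming growth factor beta (TGF-beta) pathway: the ligands TGFB1 and TGFB2, the latent binding protein LTBP1, the receptors TGFBR1 and TGFBR2, the signal carriers SMAD2, SMAD3 and SMAD4, and the inhibitor SMAD7. They were found by matching the Ensembl gene identifiers in the expression table to gene symbols, and all 9 had a row among the 20345 rows. The genes were selected on earlier fits of these same values, in which TGFB2 stood out for higher expression with GLUP against the rest of its pathway. Differences of the 9 genes with GLUP are therefore given as a description, with no test. RNA was sequenced from HGC-27, an established gastric cancer cell line, in 12 libraries: 3 each from untreated WT cells, WT cells given GLUP, untreated TEAD4KO cells and TEAD4KO cells given GLUP. GLUP is a synthetic peptide built from repeated TEAD4-binding elements and designed to hold TEAD4 molecules together, and TEAD4 is a DNA-binding transcription factor of the Hippo pathway. The study's RNA-sequencing methods name the peptide's storage buffer as the negative control, without mention of the TEAD4KO cells. The labels give neither the dose nor the duration of GLUP, nor do they say how TEAD4 was knocked out or whether the knockout line was 1 clone. The titles of the untreated libraries end in 1 to 3 and those of the GLUP libraries in 14 to 16. These are used here as replicate numbers, though the labels do not explain them. A difference in handling that followed the numbers could not be told apart from GLUP. The comparisons ask whether GLUP moved these genes, whether it moved them alike in the 2 genotypes, and whether the genotypes differed.

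TGF-beta ligands are secreted in a latent form, bound to their own propeptide and, through it, to a latent TGF-beta binding protein that anchors the complex in the matrix. In outline, and leaving out co-receptors such as TGFBR3, a released ligand joins TGFBR2, which phosphorylates TGFBR1. TGFBR1 then phosphorylates SMAD2 and SMAD3. These enter the nucleus with SMAD4 and regulate target genes, among them SMAD7, which feeds back to block the receptor. Phosphorylation, ligand release and nuclear entry leave no direct trace in RNA levels, which are all that was measured here.

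The promoters of the 2 ligands are shown because TGFB2 was singled out within its pathway and TGFB1 is the other ligand of the set. Sequences are the 250 bases before the annotated start of transcription, 5′ to 3′ on the gene's strand, from RefSeq on GRCh38.p14. Capitals mark matches on either strand to the TEAD motif letters GGAATG and the SMAD motif letters CAGAC. The AP-1 letters TGANTCA were searched too. The TGFB2 stretch lies at chr1:218345086-218345335 on the plus strand and the TGFB1 stretch at chr19:41353923-41354172 on the minus strand.
TGFB2: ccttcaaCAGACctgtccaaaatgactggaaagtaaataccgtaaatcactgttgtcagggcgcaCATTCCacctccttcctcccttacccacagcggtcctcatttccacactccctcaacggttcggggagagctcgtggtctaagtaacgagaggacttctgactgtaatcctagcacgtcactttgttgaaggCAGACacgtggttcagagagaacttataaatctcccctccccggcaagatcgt
TGFB1: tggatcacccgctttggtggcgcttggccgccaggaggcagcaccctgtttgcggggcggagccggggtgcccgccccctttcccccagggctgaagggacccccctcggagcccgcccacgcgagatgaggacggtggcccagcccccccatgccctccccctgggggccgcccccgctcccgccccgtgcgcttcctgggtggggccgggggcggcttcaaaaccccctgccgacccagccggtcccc
In the TGFB2 stretch the TEAD letters occurred once, on the minus strand from base 66, and the SMAD letters occurred from bases 8 and 198. The TGFB1 stretch held none of the 3 motifs. Over the full windows of 300 bases, which extend 50 bases past the start, GC content was 51.7% for TGFB2 and 77.3% for TGFB1. Of 35116 RefSeq windows of that length, 14% held the TEAD letters, 45.3% the SMAD letters and 7.71% the AP-1 letters. The 9 genes had 26 windows, of which 2 held the TEAD letters (1 each of TGFB2 and TGFBR1), 13 the SMAD letters and 2 the AP-1 letters (1 each of TGFBR2 and SMAD3). A match to such short letters is a description of the sequence and does not show binding.

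TEAD4, the targeted gene (ENSG00000197905, GRCh37, chr12:3068496-3149842, plus strand), was read in every library. Its values, in FPKM (a level of fragments scaled for transcript length and library size), were 25.8, 24.4 and 25.0 in WT untreated and 23.7, 22.9 and 23.8 in WT with GLUP. Libraries labelled TEAD4KO held 30.1, 27.7 and 27.2 untreated and 27.8, 29.4 and 26.0 with GLUP. The transcript was thus present and not lower under the knockout label, the difference being 0.17 ± 0.06 (SE) on the log2(FPKM + 1) scale untreated (limma adjusted p = 0.135) and 0.23 ± 0.06 with GLUP (limma adjusted p = 0.0479). A gene-level FPKM cannot show a small edit that leaves the transcript in place, so the level is no check of the protein, and these samples are called libraries labelled TEAD4KO throughout.

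The whole table had limits that touch the genes below. On the first principal component, which held 39.7% of the variance, WT libraries lay between -16.2 and -3.71. Of the libraries labelled TEAD4KO, 4 lay at 9.91 or above, while untreated replicate 1 (-0.962) and GLUP replicate 16 (-5.26) lay nearer to or among WT. Between genotype labels, fold changes fell with transcript length (Spearman -0.520 across 11077 genes, which are not independent, untreated and -0.478 with GLUP), and with GLUP they rose with it (0.237 in WT and 0.197 under the knockout label). The tissue label was only partly borne out by markers: the 6 gastric markers summed to 0.0535 to 0.284 FPKM, with 3 listed at 0 in all libraries, and of 5 epithelial markers KRT8 and CDH1 exceeded a mean of 1 FPKM. The mesenchymal gene VIM stood at 1238 to 1704 FPKM, and the fibroblast-associated genes COL1A1, COL3A1 and DCN summed to 536 to 721. The study describes HGC-27 as undifferentiated. The hematopoietic markers PTPRC, CD3E and CD68 summed to 0.172 to 0.651. The endothelial marker CDH5 was listed at 0, and PECAM1 was not matched to a row. In bulk RNA, fewer cells expressing a gene and less RNA per cell cannot be told apart.

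The levels of the 9 genes spanned a wide range in WT untreated cells. FPKM is a level per length, so genes can be set side by side in broad terms. The transcript lengths used for the scaling are not given in the sources used here, so the order of close levels is uncertain. TGFB1 was highest at 32.9 ± 0.84 (SD, n = 3), LTBP1 was next at 26.9 ± 1.40, and the ranges of these did not overlap each other or that of SMAD2. SMAD2 (11.7 ± 0.75), TGFB2 (11.6 ± 0.61) and SMAD3 (11.4 ± 0.37) followed, each overlapping its neighbour in the order. SMAD4 (10.8 ± 0.31), TGFBR1 (10.1 ± 0.87) and SMAD7 (9.45 ± 0.55) came below, again each overlapping the next. TGFBR2, the receptor that phosphorylates TGFBR1, was far below all others at 0.299 ± 0.0887. Its mean over 12 libraries was 27.9 times lower than that of TGFBR1 and in the range of the summed hematopoietic markers. The order of mean levels had TGFB1 and LTBP1 at the top and TGFBR2 at the bottom, and the 4 SMAD genes together stayed between 8.30 and 14.2 FPKM in every library.

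**Figure D1:**
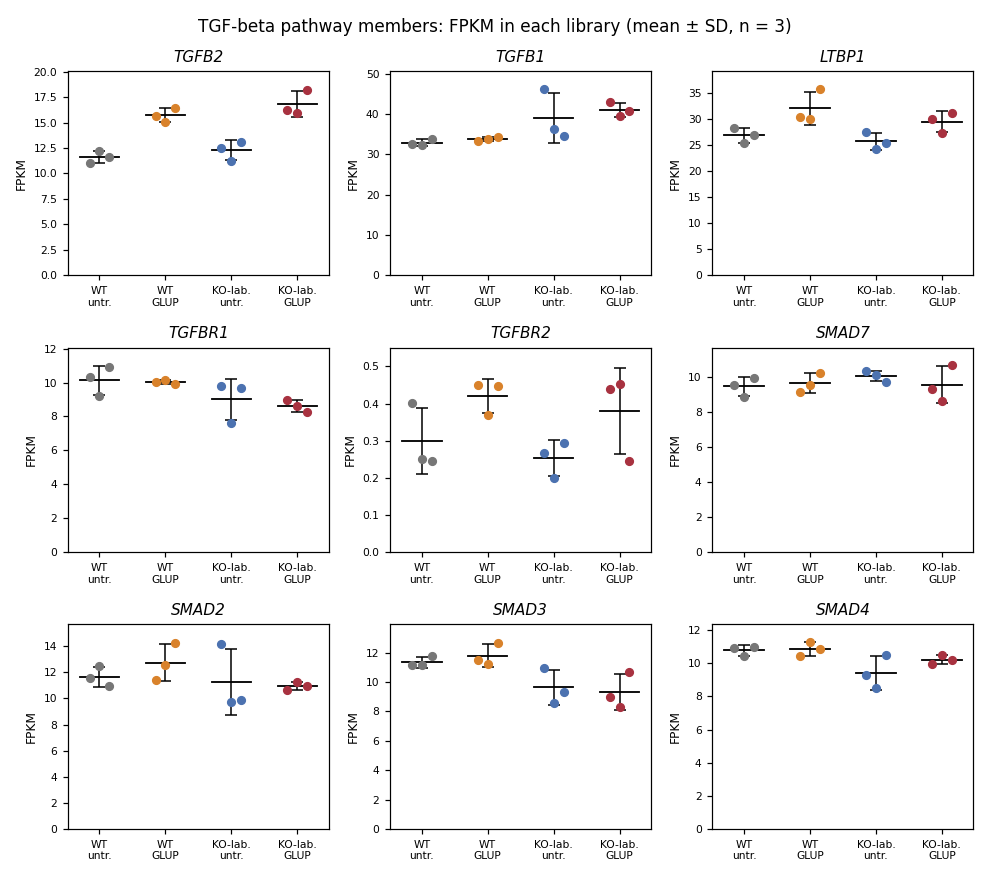
FPKM (vertical axes, starting at 0) of each of the 9 genes in each of 12 libraries, by group. Points are libraries, long bars are means and error bars are SD (n = 3). TGFB2 is higher with GLUP in both genotypes, TGFB1 is higher under the knockout label, and TGFBR2 lies under 0.5 FPKM throughout.

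TGFB2 (ENSG00000092969, GRCh37, chr1:218518678-218617961, plus strand), a ligand best known in development and in mesenchymal cell states, stood at 11.03, 12.2 and 11.6 FPKM in WT untreated and at 15.6, 15.1 and 16.5 in WT with GLUP. Knockout-labelled values were 12.5, 11.2 and 13.1 untreated and 16.2, 15.9 and 18.2 with GLUP. Every GLUP library exceeded every untreated library, across genotypes as well as within them. The ratio of mean FPKM with GLUP to without was 1.35 in WT and 1.37 under the knockout label. On the log2(FPKM + 1) scale, which understates changes of low genes, the differences were 0.41 ± 0.08 (SE) and 0.42 ± 0.08, and 0.41 ± 0.06 over both genotypes. The difference between these GLUP differences was 0.02 ± 0.11. Among all 11225 rows past the filter of a mean of at least 1 FPKM, TGFB2 ranked 46th from the highest GLUP difference in WT, 53rd under the knockout label and 28th over both. Its GLUP difference after a correction for transcript length and GC content was 0.38 in WT and 0.39 under the knockout label. Between genotypes TGFB2 differed by 0.07 ± 0.08 untreated (limma adjusted p = 0.643) and by 0.09 ± 0.08 with GLUP (limma adjusted p = 0.518), both with overlapping values. The antisense gene TGFB2-AS1 overlaps TGFB2 and has no row of its own in the table.

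The 9 genes were unevenly spread in their GLUP differences. In WT, 2 of the 8 that passed the filter, TGFB2 and LTBP1, had GLUP and untreated values that did not overlap, both higher. Over all rows 17.3% had no overlap in either direction. Under the knockout label 1 of 8, TGFB2, had no overlap, beside 6.83% of all rows. GLUP comparisons had chosen these genes, so nothing is read from those counts. The median log2 difference of the 8 was 0.04 in WT and 0.03 under the knockout label, beside 0.01 and -0.02 over all rows.

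TGFB1 (ENSG00000105329, GRCh37, chr19:41807492-41859827, minus strand), the most widely expressed ligand of the family, was at 32.6, 32.3 and 33.9 FPKM in WT untreated and 33.2, 33.9 and 34.4 in WT with GLUP. Knockout-labelled libraries were at 46.3, 36.2 and 34.7 untreated and at 42.9, 39.4 and 40.8 with GLUP. GLUP and untreated values overlapped in both genotypes, and the log2 GLUP differences were 0.04 ± 0.09 and 0.08 ± 0.09. All libraries labelled TEAD4KO lay above all WT libraries. The genotype difference was 0.23 ± 0.09 untreated (limma adjusted p = 0.147) and 0.27 ± 0.09 with GLUP (limma adjusted p = 0.0825), short of the threshold in each. Knockout-labelled untreated replicate 1 held the highest value of all, and without it the untreated difference was 0.10. Without that library the GLUP-treated comparison, whose value stayed 0.27, passed (limma adjusted p = 0.00813), its error being shared with the untreated groups. The gene overlaps HNRNPUL1, CCDC97, TMEM91 and a protein-coding gene without a symbol on the opposite strand. It also overlaps a long noncoding RNA gene on its own strand, which has no row of its own. Whether the counting used strand is not given in the sources used here.

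Levels of the 2 ligands can be set against each other. Mean TGFB1 was 2.83 times mean TGFB2 in WT untreated and 2.15 times in WT with GLUP. These ratios were 3.18 and 2.44 in libraries labelled TEAD4KO, untreated and with GLUP.

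LTBP1 (ENSG00000049323, GRCh37, chr2:33172020-33624576, plus strand), which tethers latent TGF-beta to the matrix, stood at 28.2, 25.4 and 26.9 FPKM in WT untreated and at 30.4, 30.0 and 35.8 in WT with GLUP. It was at 27.6, 24.3 and 25.4 under the knockout label untreated and at 30.0, 27.3 and 31.2 with GLUP. In WT the groups were apart, whereas under the knockout label the lowest GLUP library fell just below the highest untreated one. Its GLUP ratios of mean FPKM were 1.19 and 1.15, with log2 differences of 0.24 ± 0.08 and 0.19 ± 0.08. Leaving out WT GLUP replicate 16, the highest library, brought the WT difference to 0.16. It ranked 303rd and 492nd from the highest GLUP difference in WT and under the knockout label. By genotype it differed by -0.06 ± 0.08 untreated (limma adjusted p = 0.709) and by -0.11 ± 0.08 with GLUP (limma adjusted p = 0.412). Both of those signs turned positive after the correction for transcript length and GC content.

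Of the 2 receptors, TGFBR1 (ENSG00000106799, GRCh37, chr9:101866320-101916474, plus strand), the kinase that phosphorylates the SMADs, was at 10.3, 9.18 and 10.9 FPKM in WT untreated and 10.0, 10.1 and 9.89 in WT with GLUP. Under the knockout label it held 9.76, 7.59 and 9.66 untreated and 8.95, 8.61 and 8.27 with GLUP. Its log2 GLUP difference was -0.01 ± 0.09 in WT and -0.05 ± 0.09 under the knockout label, with overlapping values. The genotype difference was -0.16 ± 0.09 untreated (limma adjusted p = 0.350) and -0.20 ± 0.09 with GLUP (limma adjusted p = 0.215), where no knockout-labelled value reached the WT range.

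TGFBR2 (ENSG00000163513, GRCh37, chr3:30648093-30735634, plus strand) was the only one of the 9 below the filter and was not tested. It was listed at 0.401, 0.250 and 0.245 FPKM in WT untreated, 0.449, 0.369 and 0.447 in WT with GLUP, 0.266, 0.200 and 0.294 under the knockout label untreated, and 0.440, 0.453 and 0.246 with GLUP. GLUP and untreated libraries overlapped in both genotypes. The TGFBR2 ratio of mean FPKM with GLUP to without was 1.41 in WT and 1.499 under the knockout label. These ratios were above those of TGFB2, 1.35 and 1.37, whose GLUP and untreated values did not overlap. Read depth is unknown, so the counting error of values as low as those of TGFBR2 cannot be given.

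**Figure D2:**
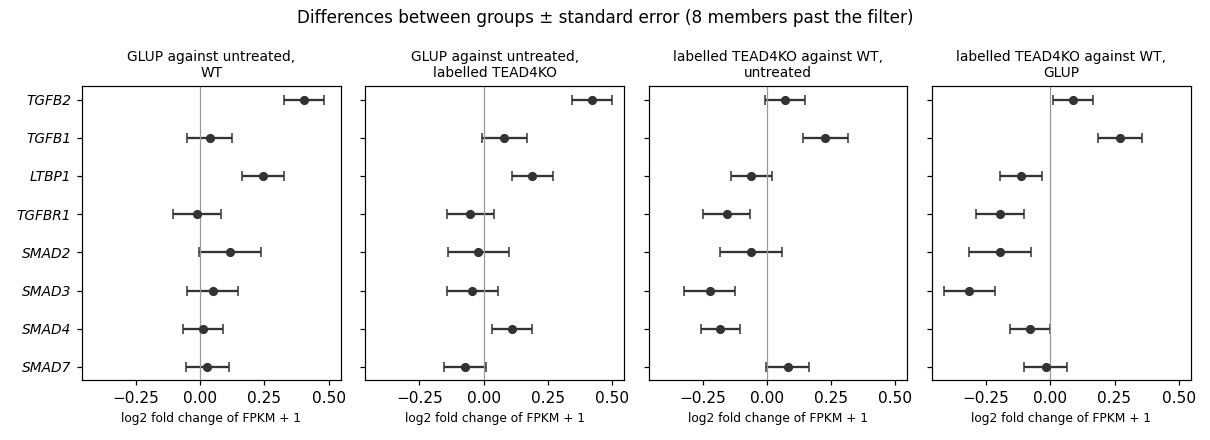
Log2 fold changes of FPKM + 1 (horizontal axis) of the 8 genes past the filter for the 4 comparisons, with points as estimates and bars as standard errors from the limma fit. The 2 GLUP panels are a description of genes chosen on them. TGFB2 stands at 0.41 and 0.42 there, and in the genotype panels TGFB1 is the highest and SMAD3 the lowest.

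Among the signal carriers, SMAD3 (ENSG00000166949, GRCh37, chr15:67356101-67487511, plus strand), which binds DNA with SMAD4, was the lowest of the 8 under the knockout label relative to WT. It was at 11.2, 11.1 and 11.8 FPKM in WT untreated and at 11.5, 11.2 and 12.7 in WT with GLUP. Knockout-labelled libraries held 10.97, 8.59 and 9.35 untreated and 8.97, 8.30 and 10.7 with GLUP. All 6 lay below all 6 WT libraries. The log2 GLUP difference was 0.05 ± 0.10 in WT and -0.04 ± 0.10 under the knockout label. Between genotypes the difference was -0.22 ± 0.10 untreated (limma adjusted p = 0.213) and -0.32 ± 0.10 with GLUP (limma adjusted p = 0.0786). With the replicate number as a block, the latter passed (limma adjusted p = 0.0428). The labels do not give that pairing, and the libraries' correlations do not show it for 14 and 15. The difference with GLUP also passed without knockout-labelled GLUP replicate 16, at -0.41 (limma adjusted p = 0.0152), or without knockout-labelled untreated replicate 1 (limma adjusted p = 0.0416). Both libraries lay nearest to WT over the whole table. The former is in the comparison, so that leaving it out widened the difference by its own construction, while without the latter the value stayed -0.32 and the shared error changed. With the length and GC correction the differences were -0.11 untreated (limma adjusted p = 0.417) and -0.20 with GLUP (limma adjusted p = 0.117), and the block together with that correction also missed the threshold (limma adjusted p = 0.110 with GLUP).

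SMAD2 (ENSG00000175387, GRCh37, chr18:45335328-45457517, minus strand), the other receptor-phosphorylated SMAD, was at 11.5, 12.5 and 10.97 FPKM in WT untreated and 11.4, 12.5 and 14.2 in WT with GLUP. It stood at 14.2, 9.76 and 9.85 under the knockout label untreated and at 10.7, 11.3 and 10.9 with GLUP. Untreated replicate 1 under the knockout label, at 14.2, was far above the other two of its group. The genotype differences were -0.06 ± 0.12 untreated (limma adjusted p = 0.804) and -0.20 ± 0.12 with GLUP (limma adjusted p = 0.338). With GLUP, SMAD2 differed by 0.11 ± 0.12 in WT and -0.02 ± 0.12 under the knockout label. SMAD2 was at the 100th percentile of annotated transcript length, and both genotype signs turned with the correction for length and GC content.

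SMAD4 (ENSG00000141646, GRCh37, chr18:48554898-48611415, plus strand), the partner shared with the bone morphogenetic protein (BMP) branch, held 10.95, 10.4 and 10.96 FPKM in WT untreated and 10.4, 11.3 and 10.9 in WT with GLUP. Knockout-labelled libraries held 9.28, 8.48 and 10.5 untreated and 9.95, 10.5 and 10.2 with GLUP. The values of the 2 genotypes overlapped in both treatments, and the differences were -0.18 ± 0.08 untreated (limma adjusted p = 0.190) and -0.08 ± 0.08 with GLUP (limma adjusted p = 0.552). The latter turned positive after a length and GC correction. With GLUP, SMAD4 differed by 0.01 ± 0.08 in WT and 0.11 ± 0.08 under the knockout label. Another annotated gene without a symbol shares its strand and region.

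The inhibitor SMAD7 (ENSG00000101665, GRCh37, chr18:46446223-46477335, minus strand), itself a direct target of the pathway, differed by no more than 0.08 in any of the 4 comparisons. Its values were 9.56, 8.86 and 9.95 FPKM in WT untreated, 9.16, 9.56 and 10.2 in WT with GLUP, 10.3, 10.1 and 9.73 under the knockout label untreated, and 9.30, 8.63 and 10.7 with GLUP. Values overlapped in all 4 comparisons. The differences were 0.03 ± 0.08 and -0.07 ± 0.08 with GLUP in the 2 genotypes, and 0.08 ± 0.08 (limma adjusted p = 0.611) and -0.02 ± 0.08 (limma adjusted p = 0.912) between genotypes. The sign of the last was not stable to quantile normalization or the length and GC correction.

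Between genotype labels, 0 of the 8 genes passed an adjusted p under 0.05 in limma in untreated cells, where 5.42% of all rows passed, and 0 of 8 passed with GLUP, where 5.84% did. At an unadjusted p under 0.05 there were 3 of 8 untreated (TGFB1, SMAD3 and SMAD4), beside 21.7% of all rows, and 2 of 8 with GLUP (TGFB1 and SMAD3), beside 23.9%. Values did not overlap for 2 of 8 untreated, TGFB1 higher and SMAD3 lower, beside 25.7% of all rows in either direction. With GLUP it was 4 of 8, TGFB1 higher and TGFBR1, SMAD2 and SMAD3 lower, beside 29.5% of all rows. The median log2 difference of the 8 was -0.06 untreated and -0.10 with GLUP, against 0.02 and -0.00389 over all rows. Of the 8, 6 have transcripts above the 80th percentile of length, TGFB1 and SMAD7 being the exceptions at the 40.3 and 49.9 percentiles, and fold changes between genotype labels fell with length over all rows. With the length and GC correction the untreated differences were 0.12 for TGFB1, -0.05 for TGFBR1 and -0.04 for SMAD4, and that of TGFBR1 with GLUP was -0.11. The part of transcript length in the remaining differences was not tested.

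The rest of the pathway was represented by 71 further genes listed by role, of which 57 passed the filter on low values. The median GLUP difference over the 57 was 0.05 in WT, with 38 positive and 19 negative, against 0.01 over all rows. Under the knockout label it was 0.03, with 36 positive and 21 negative, against -0.02 over all rows. In limma 0 of 57 passed with GLUP in WT (6 at an unadjusted p under 0.05, beside 3.43% of all rows), where 1 of 11225 rows, 0.00891%, passed. With array weights 4 of 57 passed, beside 0.543% of all rows. In the knockout-labelled groups 0 of 57 passed, beside 0.0445% of all rows (7 unadjusted, beside 6.38%). GLUP and untreated values did not overlap for 15 of 57 in WT, 13 of them higher, beside 17.3% of all rows in either direction. Under the knockout label they did not overlap for 8 of 57, all 8 higher, beside 6.83% of all rows. For the difference between the 2 GLUP effects, 0 of 57 passed (0 unadjusted), beside 0.00891% of all rows. LTBP4, another latent binding protein, had the widest such difference at -0.52 ± 0.25 (limma adjusted p = 1.00). SKIL stood about as far in the opposite direction, at 0.52 ± 0.31.

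With GLUP over both genotypes 1 of 57 passed, beside 0.258% of all rows. It was BMP4, a ligand of the BMP branch (ENSG00000125378, GRCh37, chr14:54416454-54425479, minus strand). BMP4 stood at 45.6, 53.7 and 46.9 FPKM in WT untreated and 57.3, 57.8 and 55.8 in WT with GLUP. Under the knockout label it was at 62.4, 61.9 and 62.9 untreated and 79.6, 80.3 and 72.8 with GLUP. Groups were apart in both genotypes, and the GLUP difference was 0.27 ± 0.05 (limma adjusted p = 0.0343). In limma, 8 of the 12 single-library omissions took that call past the threshold, the adjusted p reaching 0.136. BMP4 also passed between genotype labels, as given below.

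SKIL, a feedback repressor of SMADs, had the widest GLUP difference among the 57 under the knockout label, 0.69 ± 0.22 (limma adjusted p = 0.577). Its values there were 8.07, 5.85 and 7.40 FPKM untreated and 11.97, 8.83 and 16.2 with GLUP. In WT they were 14.9, 7.69 and 8.02 untreated and 10.4, 12.3 and 10.6 with GLUP, a difference of 0.17 ± 0.22 (limma adjusted p = 0.999). WT untreated replicate 1 stood apart from the other two of its group, so that the WT groups overlapped.

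PMEPA1, which restrains receptor signalling, was between 1.503 and 2.36 FPKM in all libraries, with GLUP differences of 0.10 ± 0.10 in WT (limma adjusted p = 0.999) and 0.25 ± 0.10 under the knockout label (limma adjusted p = 0.702). The matrix protein gene CCN2, a target of both SMADs and TEADs, was between 6.47 and 7.55 FPKM in WT and between 7.97 and 10.1 under the knockout label. Its GLUP differences were -0.02 ± 0.09 in each genotype (limma adjusted p = 0.999 and 0.989). TGFBI, a secreted matrix protein, had the widest GLUP difference among the 57 in WT, 0.52 ± 0.19 (limma adjusted p = 0.999), from 0.822, 1.57 and 0.992 FPKM to 1.79, 2.02 and 2.25. In the knockout-labelled groups TGFBI overlapped between treatments, with a difference of 0.12 ± 0.19 (limma adjusted p = 0.969).

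**Figure D3:**
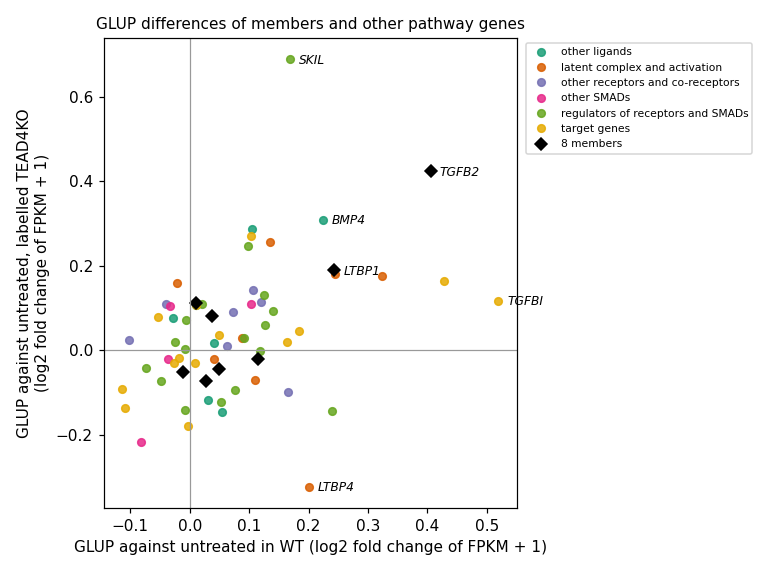
GLUP differences (log2 fold change of FPKM + 1) in WT on the horizontal axis and in libraries labelled TEAD4KO on the vertical axis. Black diamonds are the 8 genes past the filter and circles are the 57 other pathway genes, colored by role. TGFB2 lies at 0.41 and 0.42, SKIL has the highest vertical and TGFBI the highest horizontal value, and LTBP4 has the lowest vertical value.

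Between genotype labels, 4 of the 57 other pathway genes passed in untreated cells and the same 4 passed with GLUP, all higher under the knockout label. The share, 7.02% in each treatment, stood beside 5.42% and 5.84% of all rows, and of all passing rows 90.8% and 84.0% were higher. They were BMP4 and 3 of the 14 tested target genes: ID1 and ID3, inhibitors of differentiation that BMP signalling induces, and JUNB, an AP-1 subunit. Over all rows the median was 0.02 untreated and -0.00389 with GLUP. The 14 target genes had a median of 0.21 and 0.12, and the 17 regulators of receptors and SMADs, such as ubiquitin ligases and co-repressors, had a median of -0.06 and -0.09 with 0 passing. Of the latter, 14 were negative in each treatment. Genotype differences fell with transcript length over all rows, and the part of length in these medians was not tested.

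ID1 (ENSG00000125968, GRCh37, chr20:30193086-30194318, plus strand) stood between 113.6 and 125.5 FPKM in the 6 WT libraries and between 161.6 and 182.6 in the 6 labelled TEAD4KO. Its genotype difference was 0.52 ± 0.07 untreated (limma adjusted p = 0.00167) and 0.52 ± 0.07 with GLUP (limma adjusted p = 0.00127). For ID3 (ENSG00000117318, GRCh37, chr1:23884417-23885992, minus strand) the ranges were 87.1 to 96.6 and 111.2 to 135.0 FPKM. ID3 differed by 0.35 ± 0.07 untreated (limma adjusted p = 0.00919) and by 0.45 ± 0.07 with GLUP (limma adjusted p = 0.00277).

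JUNB (ENSG00000171223, GRCh37, chr19:12902300-12904129, plus strand) was between 39.8 and 52.0 FPKM in WT and between 67.1 and 75.0 under the knockout label. The difference was 0.64 ± 0.07 untreated (limma adjusted p = 0.000835) and 0.50 ± 0.07 with GLUP (limma adjusted p = 0.00186). BMP4 differed by 0.35 ± 0.07 untreated (limma adjusted p = 0.00897) and by 0.44 ± 0.07 with GLUP (limma adjusted p = 0.00286). With the length and GC correction ID3 stood at 0.20 untreated and 0.30 with GLUP, JUNB at 0.43 and 0.31, ID1 at 0.36 and 0.36, and BMP4 at 0.31 and 0.39, all 4 still passing in limma. Without WT untreated replicate 3 the untreated calls of BMP4 (limma adjusted p = 0.0595) and ID3 (limma adjusted p = 0.0637) were lost. Blocking on replicate number, 8 of the 57 passed with GLUP, 6 higher and 2 lower, beside 9.48% of all rows.

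**Figure D4:**
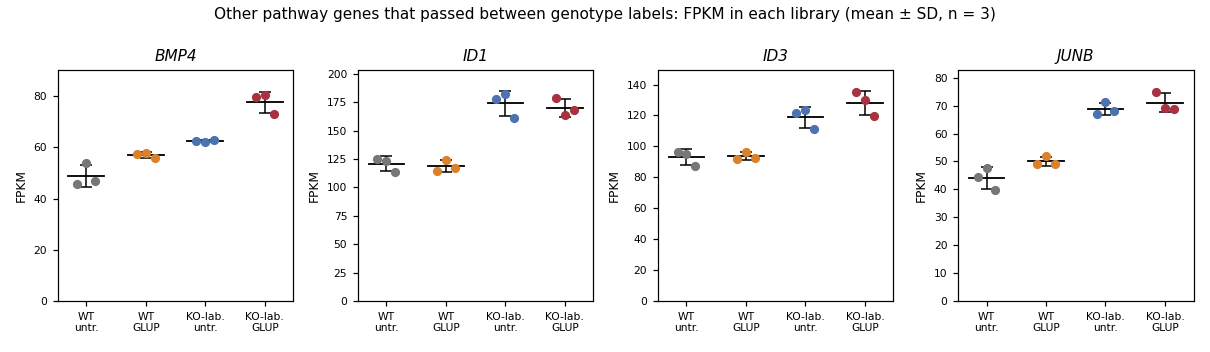
FPKM (vertical axes, starting at 0) of BMP4, ID1, ID3 and JUNB in each of 12 libraries, by group. Points are libraries, long bars are means and error bars are SD (n = 3). All 6 libraries labelled TEAD4KO lie above all 6 WT libraries for each of the 4 genes, and BMP4 is also higher with GLUP.

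Between genotype labels CCN2 differed by 0.27 ± 0.09 in both treatments (limma adjusted p = 0.116 and 0.110) and did not pass. SKIL differed by -0.42 ± 0.22 and 0.10 ± 0.22 (limma adjusted p = 0.297 and 0.808) and PMEPA1 by -0.09 ± 0.10 and 0.06 ± 0.10 (limma adjusted p = 0.623 and 0.741).

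The genes whose log2 levels followed TGFB2 most closely over the 12 libraries, in the order of Pearson's r, were SPRY2 (0.955), ERRFI1 (0.953), NDNF (0.926), RDH10 (0.916) and PPP1R3B (0.915). SPRY2 and ERRFI1 encode feedback inhibitors of receptor tyrosine kinase signalling, and RDH10 an enzyme of retinoic acid synthesis. Mean FPKM of SPRY2 was 3.59 in WT untreated, 4.998 in WT with GLUP, 3.997 under the knockout label untreated and 5.37 with GLUP. ERRFI1 followed the same order of groups, at 15.3, 20.4, 15.9 and 22.9. Among the other 7 genes of the pathway core past the filter, LTBP1 had the highest r with TGFB2 (0.728) and TGFBR1 the lowest (-0.189). The points share their libraries and the 4 groups, so these are descriptions with no p.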

How the data were processed

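The authors deposited 1 table of FPKM values, with a row per Ensembl gene and a column per library, made from HGC-27 RNA on a commercial cloud platform. The submitters' processing notes name HISAT2, Cufflinks, RSEM and hg19, without versions or roles. The strand setting is not given in the sources used here. FPKM removes library size, so read depth is unknown. Summed FPKM was 375361 to 384477 in WT libraries and 397321 to 423757 in those labelled TEAD4KO. Rows at 0 made up 21.1 to 22.3% in WT and 23.7 to 25.5% under the knockout label. The cause of this split was not tested. Whole reads could not be recovered (at most 1.30% of rows under 0.1 FPKM shared a ratio).

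Lengths, GC content and positions came from GENCODE v44 lifted to GRCh37. Symbols came from a separate list of gene names and covered 96.5% of 20345 rows. The 11225 rows averaging 1 FPKM or more were fitted as log2(FPKM + 1) in limma 3.58.1 (R 4.3.3), with 1 model of 4 groups, a mean-variance trend and Benjamini-Hochberg adjustment over all rows, and passed at an adjusted p under 0.05. The code was tested on simulated data. SE are from that fit, and SD are of FPKM. Exact permutation of 3 against 3 samples cannot go below p = 0.1 and was not used. The labels do not say that replicates came from separate cultures (the study's methods mention biological replicates), so p-values measure the spread between these samples, which may be technical. Correlations between replicates were 0.986 to 0.996, and 0 pairs of columns were identical.

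The 9 genes, the 71 pathway genes by role and the other lists were chosen with earlier results of these data known. Named in the text were the 9 genes, TEAD4, CCN2, SKIL and PMEPA1, and 1 result that the rule covers is not reported here. Per comparison, so were the passing pathway genes (at most 5 each way, or the largest difference where none passed), and so were the 5 genes closest to TGFB2 by Pearson's r. Pairing by replicate number was checked as the correlation of deviations of WT and TEAD4KO libraries. Same-numbered libraries gave 0.106, 0.152 and 0.336 with GLUP and -0.06, 0.20 and -0.01 untreated. Different-numbered untreated libraries gave -0.19 to 0.18. With GLUP, WT 14 and TEAD4KO 15 gave 0.134, and WT 15 and TEAD4KO 14 gave 0.116. Pairs of 16 with another number gave -0.245 to -0.185. Only 16 stood apart by number, so the correlations do not show that 14 and 15 pair. The replicate block was kept as an alternative. Alternatives were the pseudocount, the filter, scaling, quantile normalization, a length and GC correction, variance settings, array weights, fits of only the groups compared, a fold limit of 2, the replicate block, and leaving out each library.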

Additional observations from a re-analysis of the deposited data

How the results depend on the processing

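TGFB2 kept a positive GLUP difference under each alternative, at 0.38 to 0.43 in WT and 0.38 to 0.45 under the knockout label. When each library was left out it was 0.37 to 0.44 and 0.36 to 0.47. TGFB2 was chosen for this difference, and every GLUP library exceeded every untreated one. Leaving out 1 library therefore could not turn its sign. LTBP1 also stayed positive, at 0.20 to 0.26 and 0.18 to 0.21, or 0.16 to 0.29 and 0.15 to 0.24 without a library. In limma the count of core genes passing between genotypes with GLUP, 0, became 1 with quantile normalization, 1 in a fit of only the groups compared, 1 with the replicate block and 2 with array weights, and ranged from 0 to 2 without a library (2 without TEAD4KO untreated replicate 1). SMAD3 passed with quantile normalization (adjusted p = 0.0362), with array weights (0.00851) and with the replicate block (0.0428). TGFB1 passed with array weights (0.00658) and in the fit of only the groups compared (0.0369).

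Of the other pathway genes, the 4 passing untreated became 0 with a fold change over 2 and ranged from 2 (without WT untreated replicate 3) to 11 (without TEAD4KO untreated replicate 1, beside 10.6% of all rows). The 4 passing with GLUP became 14 with array weights (22.2% of all rows passed there), 8 with the replicate block (9.48%), 7 with the replicate block and the length and GC correction (4.29%), and 0 with a fold change over 2, and ranged from 4 to 11 (11 without TEAD4KO GLUP replicate 16, beside 17.4%). The count for GLUP in WT, 0, became 4 with array weights (0.543%). The 1 gene for GLUP over both genotypes became 0 with no filter, 0 with median-ratio scaling, 0 without a variance trend, 0 with a fold change over 2, 2 with the length and GC correction and 2 with array weights, and ranged from 0 to 2 without a library. BMP4 had adjusted p values of 0.0690, 0.0559 and 0.0782 in the first 3 of these.

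Signs that turned belonged to small genotype differences. With the length and GC correction, with or without the block, LTBP1 became 0.054 untreated and 0.0055 with GLUP, SMAD2 0.16 and 0.087, and with GLUP SMAD4 became 0.047 and SMAD7 0.012. Leaving out 1 library moved SMAD2 untreated between -0.23 and 0.024, positive without TEAD4KO untreated replicate 2 (0.024) or 3 (0.018). SMAD7 with GLUP became 0.0036 with quantile normalization, and ranged from -0.095 to 0.045 without 1 library, positive without WT GLUP replicate 16 (0.021) or TEAD4KO GLUP replicate 15 (0.045). The cause of these changes was not tested. Of genes passing between genotypes over all rows, 90.8% were higher untreated and 84.0% with GLUP. Median-ratio scaling gave 70.6% and 73.0%, and quantile normalization 59.2% and 63.0%. In untreated cells, whose numbers did not pair, the replicate block left the counts at 0 core genes and 4 pathway genes, with 849 passing over all rows against 608. The GLUP comparisons could not take the block, because treated and untreated libraries share no replicate number. Depth is unknown, so counting error limits low genes such as TGFBR2 by an amount that cannot be given.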
